A study of Mus musculus with 22 samples.

Results

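The activity-dependent immediate early genes were followed as a group of 32 genes in tissue of the nucleus accumbens, the part of the striatum that weighs reward and motivation. They were chosen as a listed set by gene symbol and are 32 of the 24061 genes in the deposited count table. All 32 were found there and all 32 passed the filter on low counts. Messenger RNA was sequenced from bulk tissue of male C57BL/6J mice obtained from Jackson Laboratories at 7 to 9 weeks of age and conventionally raised. The libraries fell into 4 groups: 5 from mice given antibiotics and morphine, 6 from mice given antibiotics and saline, 5 from mice on water (H2O in the titles) given morphine, and 6 from mice on water given saline. The antibiotics were ones that are not absorbed, given to deplete the gut microbiome (the sources used here give no names, route or duration). Morphine was given at 20 mg/kg per day for 7 days, and water mice are labelled as having a normal microbiome. All groups share the strain, sex and source. The titles number the libraries without stating whether each comes from a single mouse, so p-values measure only the spread between these libraries. The sources used here do not give the time between the last injection and tissue collection.

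Immediate early genes are switched on within minutes of synaptic input, without new protein synthesis, when calcium, cyclic AMP and MAP kinase signals reach the transcription factors CREB, SRF and MEF2, which already sit at their promoters. Most encode transcription factors, such as the Fos and Jun subunits of AP-1, the EGR zinc finger proteins and the NR4A orphan nuclear receptors. Others act at the synapse or switch the signal off again. Their transcripts decay quickly, so their level in dissected tissue follows recent neuronal activity, and in the accumbens they are widely used as markers of neurons activated by drugs of abuse.

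Each library held 11789713 to 19755139 counts in total, of which genes took from 9357299 to 15330947. The dissection carried striatal projection neuron transcripts in every library: Ppp1r1b, which encodes the PKA-regulated phosphatase inhibitor DARPP-32, had at least 703 CPM (counts relative to the library's gene counts, in the usual CPM unit, after TMM scaling), and the enkephalin precursor Penk at least 705 CPM. Transcripts of neighbouring tissue varied widely. Slc17a7, a vesicular glutamate transporter gene of cortical neurons, ranged from 3.48 to 1238 CPM. Malat1, a nuclear noncoding RNA, ranged from 164 to 2463 CPM. The 32 genes together took between 0.0825% and 0.200% of a library's gene counts.

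Compared per length, as CPM per kilobase of the longest transcript averaged over 22 libraries, Jund, an AP-1 subunit, was the most abundant at 98.5. It was followed by the AP-1 subunit Junb at 57.8, the zinc finger factor Egr1 at 57.3, the synaptic gene Arc at 48.2 and the nuclear receptor Nr4a1 at 40.7. Egr3 at 28.6 and Egr4 at 22.9 came next, and the archetype of the class, Fos, stood at 12.6. The stress-responsive factor Atf3 was the least abundant at 0.900 CPM per kilobase, with 10 to 43 counts per library, so its values carry the most counting error.

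The promoters of 4 members are shown because the results turn on them: Fos is the reference for the co-variation described later, and Csrnp1, Gadd45b and Ier5 are among the members that passed a test. They are the 250 bases before the annotated start in RefSeq (GRCm38.p6), 5′ to 3′ on the strand of the gene, from chr12:85473640-85473889 (plus strand), chr9:119984743-119984992 (minus strand, 1 of 4 listed starts), chr10:80929841-80930090 (plus strand) and chr1:155099637-155099886 (minus strand). Capitals mark TGACG, the core of the cyclic AMP response element that CREB binds, and GCGNGGGCG, a site read by EGR proteins, each searched on both strands (a match on the other strand shows as its reverse complement).
Fos: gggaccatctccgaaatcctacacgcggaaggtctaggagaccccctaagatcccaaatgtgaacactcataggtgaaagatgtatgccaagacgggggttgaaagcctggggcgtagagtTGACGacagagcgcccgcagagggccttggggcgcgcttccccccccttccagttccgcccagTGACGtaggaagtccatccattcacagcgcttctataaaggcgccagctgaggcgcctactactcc
Csrnp1: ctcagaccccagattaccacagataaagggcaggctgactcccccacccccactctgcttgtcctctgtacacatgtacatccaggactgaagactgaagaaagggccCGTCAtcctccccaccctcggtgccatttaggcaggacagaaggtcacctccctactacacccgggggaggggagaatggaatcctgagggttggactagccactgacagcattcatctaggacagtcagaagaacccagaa
Gadd45b: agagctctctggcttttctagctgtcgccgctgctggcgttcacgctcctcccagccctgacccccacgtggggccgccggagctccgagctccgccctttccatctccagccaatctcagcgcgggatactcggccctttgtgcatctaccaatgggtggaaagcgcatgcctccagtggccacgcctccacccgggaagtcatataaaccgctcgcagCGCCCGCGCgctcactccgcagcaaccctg
Ier5: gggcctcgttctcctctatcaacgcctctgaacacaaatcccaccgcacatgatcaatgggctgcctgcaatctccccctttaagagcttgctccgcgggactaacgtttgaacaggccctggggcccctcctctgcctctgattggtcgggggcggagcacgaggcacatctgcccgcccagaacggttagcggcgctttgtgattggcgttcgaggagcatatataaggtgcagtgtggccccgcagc
The Fos window held TGACG at positions -129 to -125 and -66 to -62, counted back from the start, with TATAAA at -33 to -28. Csrnp1 held 1 TGACG match on the other strand at -142 to -138. Gadd45b held 1 EGR-type match at -30 to -22 and TATAAA at -46 to -41. In the Ier5 window none of these letters was found. For the counts that follow, a gene with several listed starts counted when any of its windows held the motif, for members and all genes alike, and only the first listed start is printed. Of the 32 members, 25 had a RefSeq window (Cyr61 under its symbol Ccn1). TGACG was present in 17 of the 25 (68.0%), against 19.8% of 27025 genes with a window of the same length, and GCGNGGGCG in 8 (32%), against 5.33%. The longer palindrome TGACGTCA, which contains TGACG, was present in 2 (8.0%; Dusp1 and Btg2), against 1.77%. The serum response element core, the CArG box, was present in 2 (8.0%; Egr2 and Dusp5), against 1.62%. TATAAA was present in 5 (20.0%), against 14.3%, and the AP-1 site TGANTCA in 1 (4.0%; Csrnp1, in a window other than the one printed), against 7.82%. These are letter matches in a short window and not measured binding. Egr1, Egr3, Arc, Ier2, Klf10, Sik1 and Nptx2 are named only.

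Few immediate early genes passed the test in any comparison, and where most of them leaned higher they did so within the spread between libraries. Differences were tested with edgeR's quasi-likelihood test over 14564 genes, and a gene was called at a Benjamini-Hochberg adjusted p under 0.05. Morphine against saline in water mice called 0 members higher and 1 lower, Ier5, where 6.58% of all genes tested were called (3.91% higher and 2.67% lower). Morphine against saline in antibiotic mice called 0 members, where 13% of all genes were called (6.43% higher and 6.62% lower). With an unadjusted p under 0.05, 4 member changes were positive and 0 negative there, where 27.6% of all genes had such a p. Antibiotics against water in saline mice called 0 members, where 1.41% of all genes were called (0.542% higher and 0.865% lower). Again 4 changes were positive and 0 negative at an unadjusted p under 0.05, where 17.3% of all genes had such a p. DESeq2 called 1 member in the water comparison of morphine besides Ier5 (Fosl2, higher), 0 in the antibiotic one, and 2 (Fosl2 and Nr4a3, both higher) for antibiotics against water in saline mice. Antibiotics against water in morphine mice called 4 members higher (Csrnp1, Gadd45b, Nr4a3 and Ier5) and 0 lower, where 18.0% of all genes were called (8.42% higher and 9.58% lower). All 4 of 32 were on the higher side. No member lay wholly above its comparison group with morphine, in water mice (3.10% of all genes did) or in antibiotic mice (3.14% did, and 3.17% lay wholly below, again with 0 members). With antibiotics in saline mice 0 members lay wholly below, as 1.01% of all genes did, and in morphine mice also 0, as 6.82% did.

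The members' log2 changes leaned to the positive side in the 4 comparisons. A total of 22 of 32 were above 0 for morphine in water mice (median 0.195), where 49.9% of all genes were above 0. For morphine in antibiotic mice 26 were above 0 (median 0.196), against 49.4% of all genes. For antibiotics in saline mice 26 were above 0 (median 0.206), against 51.1% of all genes, and for antibiotics in morphine mice 30 were above 0 (median 0.225), against 50.1%. The comparisons share groups of libraries, and the members vary together between libraries, so these counts are not separate observations. In bulk tissue, a change in the number of active cells and a change in transcript per cell cannot be told apart. The difference between the morphine changes (antibiotic mice minus water mice) was above 0 for 16 of 32 members (48.7% of all genes) with a median of -0.0012, and 0 members were called, where 0.467% of all genes were. At an unadjusted p under 0.05, 2 members were positive there, where 12.3% of all genes had such a p. They were Ier5 at 0.44 ± 0.14 on the log2 scale (edgeR adjusted p = 0.171) and Gadd45b at 0.42 ± 0.18 (edgeR adjusted p = 0.322). By DESeq2 0 members were called. Egr3 stood at 0.31 ± 0.16 (edgeR adjusted p = 0.441).

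**Figure D1:**
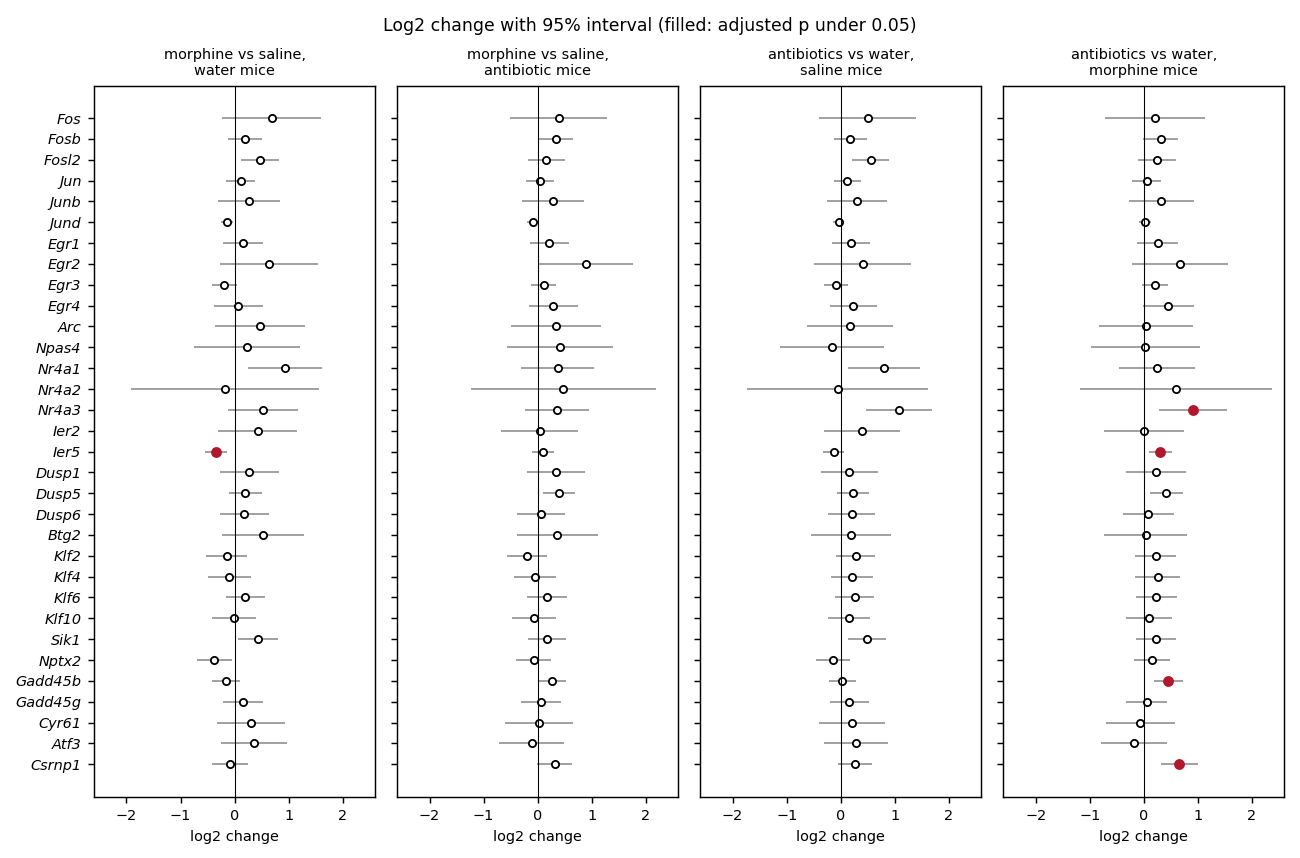
Log2 change (horizontal axis) with its 95% interval for the 32 genes in the 4 comparisons, from edgeR. Filled red points passed an adjusted p under 0.05: 1 for morphine in water mice, lower, and 4 for antibiotics in morphine mice, higher. The intervals of Fos, Egr2, Npas4 and Nr4a2 are wide and include 0 in every panel, except that of Egr2 for morphine in antibiotic mice.

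Among the AP-1 subunits, Fos did not pass in any comparison. It had 38.0, 35.6, 28.5, 38.9 and 29.1 CPM in antibiotic mice given morphine (libraries 1 to 5) and between 12.3 and 59.3 (median 18.7) in antibiotic mice given saline. It had 28.1, 28.7, 45.9, 38.8 and 5.55 CPM in water mice given morphine (libraries 2 to 6) and between 8.72 and 33.0 (median 16.2) in water mice given saline. The 5 antibiotic-morphine libraries lay close together, whereas water-morphine library 6 was the lowest of all 22 and antibiotic-saline library 5 the highest, and all 4 groups overlapped. The log2 change of Fos with morphine was 0.68 ± 0.44 (SE) in water mice (edgeR adjusted p = 0.378) and 0.39 ± 0.43 in antibiotic mice (edgeR adjusted p = 0.611). With antibiotics it was 0.50 ± 0.43 in saline mice (edgeR adjusted p = 0.587) and 0.20 ± 0.44 in morphine mice (edgeR adjusted p = 0.799). The 95% interval of the morphine change in water mice, -0.23 to 1.60 on the log2 scale, was wide.

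Fosb, whose splice form ΔFosB accumulates with repeated drug exposure, was counted without regard to splice form. It had 26.7, 28.5, 28.0, 26.7 and 20.9 CPM in antibiotic mice given morphine and between 16.7 and 25.2 (median 20.8) in antibiotic mice given saline. It had 16.2, 24.9, 21.6, 28.8 and 12.9 CPM in water mice given morphine and between 15.1 and 22.7 (median 18.4) in water mice given saline. Antibiotic-morphine libraries 1 to 4 lay above every antibiotic-saline library, and library 5 was within their range. The change with morphine was 0.33 ± 0.15 in antibiotic mice (edgeR adjusted p = 0.157) and 0.19 ± 0.15 in water mice (edgeR adjusted p = 0.493). The change with antibiotics was 0.18 ± 0.15 in saline mice (edgeR adjusted p = 0.573) and 0.32 ± 0.16 in morphine mice (edgeR adjusted p = 0.173).

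Fosl2, a Fos-related subunit, separated the saline groups. It had between 47.2 and 64.6 (median 50.7) CPM in antibiotic mice given saline and between 26.2 and 44.0 (median 37.1) in water mice given saline. It had 64.6, 64.9, 50.6, 65.3 and 47.2 CPM in antibiotic mice given morphine and 42.0, 49.0, 58.8, 65.2 and 30.6 in water mice given morphine. All 6 antibiotic-saline libraries lay above all 6 water-saline libraries. Such a separation upward was seen for 2 of the 32 members, Fosl2 and Nr4a3, and for 0.632% of all genes tested. The change with antibiotics in saline mice was 0.55 ± 0.16, 1.47-fold, and did not pass (edgeR adjusted p = 0.0913). It did pass in DESeq2. The change with morphine in water mice was 0.46 ± 0.17 (edgeR adjusted p = 0.102), with 4 of 5 libraries above the mean of the water-saline libraries.

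Junb followed the pattern of Fos with a smaller range. It had 124, 144, 141, 137 and 96.9 CPM in antibiotic mice given morphine and between 66.3 and 142 (median 103) in antibiotic mice given saline. It had 95.8, 122, 107, 146 and 41.9 CPM in water mice given morphine and between 52.4 and 131 (median 80.8) in water mice given saline. Its lowest library was again water-morphine 6, and the groups overlapped. Its 4 changes lay between 0.27 and 0.33, with edgeR adjusted p from 0.478 to 0.621. Jun, the c-Jun subunit, ranged from 36.4 to 64.3 CPM over all libraries with log2 changes of at most 0.12 in each comparison. Jund, which is expressed constitutively, was the steadiest member, at 145 to 179.8 CPM. Its 5 water-morphine libraries lay below all 6 water-saline libraries, as did 2.73% of all genes tested, and the difference was small, -0.14 ± 0.05 (edgeR adjusted p = 0.12).

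**Figure D2:**
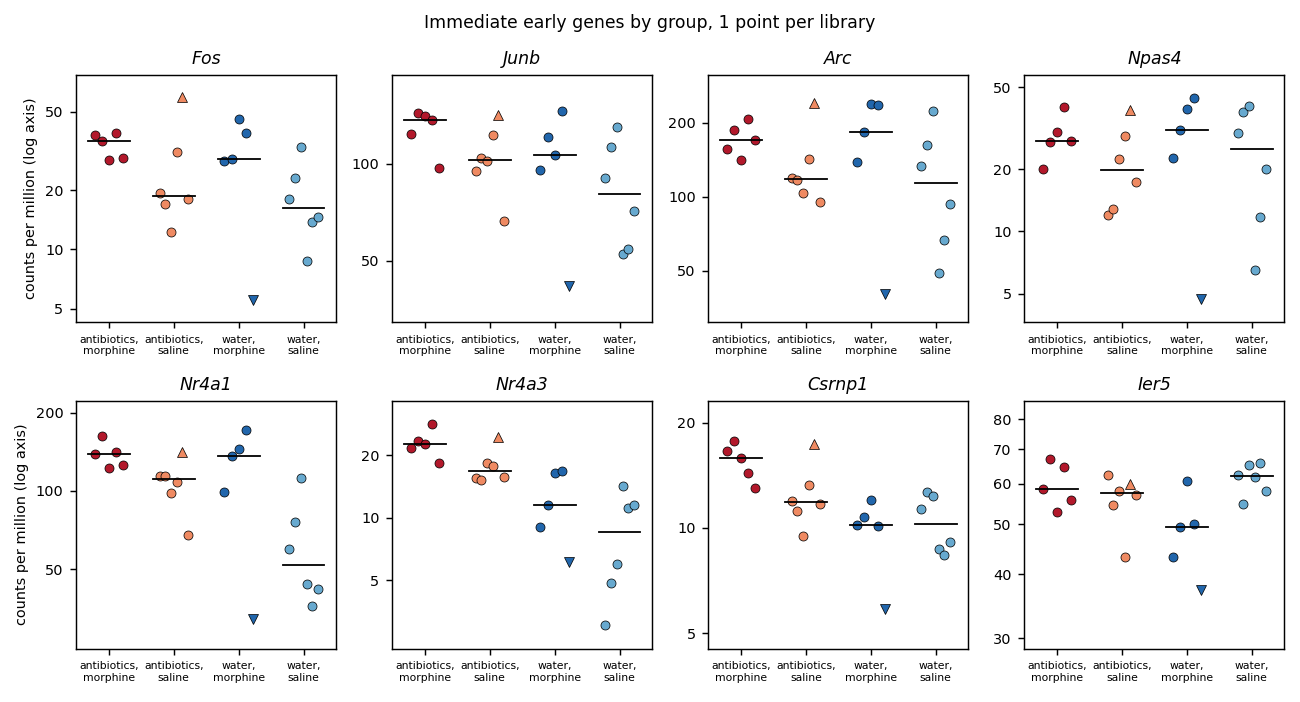
CPM on a log axis (vertical) of 8 immediate early genes in the 4 groups, 1 point per library, with a black bar at the group median. Downward triangles mark water-morphine library 6 and upward triangles antibiotic-saline library 5. For Nr4a3, the points of antibiotic-morphine mice lie above those of water-morphine mice and the points of antibiotic-saline mice above those of water-saline mice.

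Of the EGR family, 0 of 4 members passed in any comparison. Egr1, an early marker of synaptic plasticity, had 281, 339, 261, 331 and 286 CPM in antibiotic mice given morphine and between 226 and 350.1 (median 243) in antibiotic mice given saline. It had 212, 258, 317, 329.9 and 135 CPM in water mice given morphine and between 193 and 289 (median 218) in water mice given saline. Water-morphine library 6 was the lowest of the 22 and antibiotic-saline library 5 the highest. The change with morphine was 0.15 ± 0.18 in water mice (edgeR adjusted p = 0.669) and 0.22 ± 0.17 in antibiotic mice (edgeR adjusted p = 0.463). With antibiotics it was 0.19 ± 0.17 in saline mice (edgeR adjusted p = 0.596) and 0.26 ± 0.18 in morphine mice (edgeR adjusted p = 0.36). Egr2 ranged from 1.90 to 24.0 CPM and its largest change was with morphine in antibiotic mice, 0.89 ± 0.42 (edgeR adjusted p = 0.17), where all 5 libraries were above the mean of antibiotic-saline mice. In a fit of the compared groups alone Egr2 was called there. Egr3 ranged from 92.1 to 156 CPM with changes between -0.19 and 0.21. Egr4 ranged from 21.4 to 75.9 CPM with changes between 0.07 and 0.45.

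In the NR4A family of orphan nuclear receptors, which are induced by cyclic AMP and calcium, Nr4a3 rose with antibiotics in morphine mice. It had 21.7, 23.3, 22.7, 28.0 and 18.4 CPM in antibiotic mice given morphine, against 9.05, 11.5, 16.4, 16.8 and 6.13 in water mice given morphine. It had between 15.2 and 24.5 (median 16.7) CPM in antibiotic mice given saline, against between 3.04 and 14.2 (median 8.54) in water mice given saline. The antibiotic libraries lay above the water libraries under each injection with no overlap. In morphine mice Nr4a3 rose by 0.92 ± 0.30 on the log2 scale, 1.89-fold (edgeR adjusted p = 0.0412). Such a separation upward was seen there for 3 members (Csrnp1, Gadd45b and Nr4a3) and for 6.26% of all genes tested. In saline mice the change was 1.08 ± 0.29, 2.11-fold, and did not pass with edgeR (adjusted p = 0.0682). It passed there with DESeq2 and limma-voom. The log2 change of Nr4a3 with morphine was 0.52 ± 0.31 in water mice (edgeR adjusted p = 0.329) and 0.36 ± 0.28 in antibiotic mice (edgeR adjusted p = 0.446). The call in morphine mice held in 15 of 22 fits that left out 1 library. Of the 7 in which it ended, 3 left out a water-morphine library (2, 3 or 6) and 4 an antibiotic-morphine library (1, 2, 3 or 4), with the weakest value without water-morphine library 6 (0.75, edgeR adjusted p = 0.0986).

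Nr4a1 (Nur77) had its lowest group median in water mice given saline. It had 98.7, 137, 145, 171 and 32.2 CPM in water mice given morphine and between 36.2 and 112 (median 51.7) in water mice given saline. It had 139, 163, 122, 141 and 125 CPM in antibiotic mice given morphine and between 67.4 and 141 (median 111) in antibiotic mice given saline. Water-morphine libraries 3 to 5 lay above every water-saline library, and library 6 lay below all of them. The change with morphine in water mice was 0.93 ± 0.33, 1.91-fold, and did not pass (edgeR adjusted p = 0.098). Without library 6 it was 1.17 ± 0.26 and passed (edgeR adjusted p = 0.0202). As that library was the lowest of its group, leaving it out raises the change, so this call is no independent result. The change with antibiotics in saline mice was 0.80 ± 0.32 (edgeR adjusted p = 0.204), with all 6 libraries above the mean of water-saline mice. In antibiotic mice the change with morphine was 0.37 ± 0.32 (edgeR adjusted p = 0.506), and in morphine mice the change with antibiotics was 0.24 ± 0.34 (edgeR adjusted p = 0.68).

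Nr4a2 (Nurr1), also a marker of deep cortical and claustral neurons, varied more than any other member, 32-fold over the 22 libraries. It had 28.6, 41.4, 8.16, 24.2 and 14.0 CPM in antibiotic mice given morphine and between 3.62 and 42.3 (median 11.6) in antibiotic mice given saline. It had 2.84, 5.91, 58.9, 4.53 and 1.99 CPM in water mice given morphine and between 1.84 and 31.5 (median 18.0) in water mice given saline. Water-morphine library 4 stood far above the rest of its group. The changes lay between -0.18 and 0.59, with standard errors between 0.80 and 0.84.

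Of the genes that act at the synapse or mark depolarisation, Arc, Npas4 and Nptx2 did not pass in any comparison. Arc, a cytoskeletal protein that removes AMPA receptors from synapses, had 156, 187, 141, 206 and 169.7 CPM in antibiotic mice given morphine and between 95.3 and 241 (median 118) in antibiotic mice given saline. It had 139, 183, 239, 236 and 40.2 CPM in water mice given morphine and between 48.9 and 222 (median 113) in water mice given saline. Water-morphine library 6 was below every other library. The log2 change of Arc with morphine was 0.47 ± 0.40 in water mice (edgeR adjusted p = 0.52) and 0.34 ± 0.40 in antibiotic mice (edgeR adjusted p = 0.635). With antibiotics it was 0.17 ± 0.38 in saline mice (edgeR adjusted p = 0.864) and 0.04 ± 0.41 in morphine mice (edgeR adjusted p = 0.963).

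Npas4, a transcription factor selective for calcium entry after depolarisation, had 20.0, 27.1, 30.4, 40.2 and 27.4 CPM in antibiotic mice given morphine and between 12.1 and 38.5 (median 19.8) in antibiotic mice given saline. It had 22.7, 31.0, 39.2, 44.2 and 4.72 CPM in water mice given morphine and between 6.49 and 40.5 (median 25) in water mice given saline. The libraries of both water groups lay far apart and those of the antibiotic-morphine group closer together, and the groups overlapped. The log2 change of Npas4 with morphine was 0.23 ± 0.47 in water mice (edgeR adjusted p = 0.828) and 0.42 ± 0.47 in antibiotic mice (edgeR adjusted p = 0.621). With antibiotics it was -0.16 ± 0.46 in saline mice (edgeR adjusted p = 0.895) and 0.02 ± 0.48 in morphine mice (edgeR adjusted p = 0.979). Nptx2, a secreted pentraxin that gathers AMPA receptors, ranged from 22.6 to 47.8 CPM and its log2 change with morphine in water mice was -0.37 ± 0.16, which did not pass (edgeR adjusted p = 0.158).

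Ier5, a nuclear immediate early response protein whose printed promoter held none of the motifs, was the 1 member called lower with morphine in water mice. In all, 10 of 32 members had a negative change there. It had 43.2, 49.3, 60.8, 50.1 and 37.3 CPM in water mice given morphine, against between 54.7 and 65.8 (median 62.1) in water mice given saline. It had 58.5, 66.8, 52.9, 64.5 and 55.8 CPM in antibiotic mice given morphine, against between 43.3 and 62.5 (median 57.5) in antibiotic mice given saline. Water-morphine library 4 lay within the range of the water-saline libraries and the other 4 below it. Ier5 fell by 0.34 ± 0.10 on the log2 scale with morphine in water mice (edgeR adjusted p = 0.0406), and it was higher by 0.31 ± 0.10 with antibiotics in morphine mice (edgeR adjusted p = 0.0435), a comparison that shares the water-morphine libraries. In antibiotic mice its change with morphine was 0.10 ± 0.10 (edgeR adjusted p = 0.582), and in saline mice its change with antibiotics was -0.13 ± 0.10 (edgeR adjusted p = 0.495). When each library was left out in turn, the edgeR adjusted p ran from 0.00786 to 0.114 for morphine in water mice and from 0.00535 to 0.122 for antibiotics in morphine mice. The first call held in 11 of those 22 fits and ended without water-saline library 3, 5, 6, 8 or 9, water-morphine library 2, 3, 5 or 6, or antibiotic-morphine library 4 or 5. The second held in 12 and ended without water-saline library 3 or 6, antibiotic-saline library 2, water-morphine library 2, 3, 5 or 6, or antibiotic-morphine library 1, 2 or 4. Without water-morphine library 6 both ended, at -0.27 (edgeR adjusted p = 0.107) and 0.23 (edgeR adjusted p = 0.122). The libraries also differed by transcript length, measured as the slope of a library's log2 CPM, centred per gene, on log2 transcript length. It ran from 0.028 to 0.0468 in water-morphine mice and from -0.0781 to -0.0111 in water-saline mice, and from 0.0255 to 0.055 in antibiotic-morphine mice and from -0.0532 to 0.0479 in antibiotic-saline mice. The slope separated water-morphine from water-saline libraries completely, so slope and morphine cannot be told apart there. In antibiotic mice the slope was positive in all 5 morphine libraries and negative in 5 of 6 saline libraries. Slope and morphine can hardly be told apart in antibiotic mice either. With the slope as a covariate, morphine in water mice called 0 of 14564 genes, and Ier5 stood at -0.40 ± 0.18 (edgeR adjusted p = 0.685). For antibiotics in morphine mice that fit called 3 members higher, Csrnp1, Gadd45b and Nr4a3, and 18.4% of all genes, and Ier5 stood at 0.30 (edgeR adjusted p = 0.0514). Ier2, of the same family, ranged from 2.65 to 10.5 CPM and its changes lay between 0.00 and 0.42.

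Csrnp1, a nuclear protein with transcriptional activity, had the smallest p of any member in any comparison. It had 16.6, 17.8, 15.8, 14.4 and 13 CPM in antibiotic mice given morphine, against 10.2, 10.8, 12, 10.1 and 5.88 in water mice given morphine. It had between 9.47 and 17.3 (median 11.8) CPM in antibiotic mice given saline, against between 8.38 and 12.6 (median 10.2) in water mice given saline. All 5 antibiotic-morphine libraries lay above all 5 water-morphine libraries, of which library 6 was the lowest. Csrnp1 rose by 0.66 ± 0.16, 1.58-fold, with antibiotics in morphine mice (edgeR adjusted p = 0.00665), and it passed there with each library left out in turn (edgeR adjusted p from 0.00294 to 0.0190). The change with antibiotics in saline mice was 0.26 ± 0.15 (edgeR adjusted p = 0.398). With morphine it was -0.09 ± 0.16 in water mice (edgeR adjusted p = 0.812) and 0.31 ± 0.15 in antibiotic mice (edgeR adjusted p = 0.189).

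Gadd45b, a stress-inducible protein tied to activity-dependent DNA demethylation, had 18.6, 16.1, 17.0, 18.5 and 15.4 CPM in antibiotic mice given morphine, against 10.7, 13.1, 14.9, 14.2 and 9.36 in water mice given morphine. It had between 11.8 and 18.0 (median 14.1) CPM in antibiotic mice given saline, against between 10.6 and 16.4 (median 14.8) in water mice given saline. The morphine groups did not overlap and the saline groups did. Gadd45b rose by 0.45 ± 0.13, 1.37-fold, with antibiotics in morphine mice (edgeR adjusted p = 0.019). In saline mice its change with antibiotics was 0.03 ± 0.12 (edgeR adjusted p = 0.943). With morphine it was -0.16 ± 0.13 in water mice (edgeR adjusted p = 0.499) and 0.27 ± 0.13 in antibiotic mice (edgeR adjusted p = 0.166). The call held in 19 of 22 fits that left out 1 library and ended without water-morphine library 2, water-morphine library 6 or antibiotic-morphine library 1. Without water-morphine library 6 the change was 0.36 (edgeR adjusted p = 0.0617). Gadd45g, its paralog, ranged from 9.30 to 23.1 CPM with log2 changes of at most 0.16 in each comparison.

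The genes that switch the signal off passed in 0 comparisons. Dusp5, a nuclear phosphatase that inactivates ERK, came nearest. It had 6.06, 6.82, 5.78, 6.76 and 5.19 CPM in antibiotic mice given morphine and between 3.76 and 6.17 (median 4.43) in antibiotic mice given saline. It had 4.10, 5.01, 4.82, 5.88 and 2.98 CPM in water mice given morphine and between 3.62 and 4.79 (median 3.86) in water mice given saline. The antibiotic-morphine libraries were the highest group with some overlap. The change was 0.39 ± 0.14 with morphine in antibiotic mice (edgeR adjusted p = 0.075) and 0.42 ± 0.15 with antibiotics in morphine mice (edgeR adjusted p = 0.0527). Dusp1, which acts on several MAP kinases, ranged from 14.9 to 53.3 CPM with changes between 0.16 and 0.33. Dusp6, a cytoplasmic ERK phosphatase, ranged from 21.9 to 57.0 CPM with changes between 0.06 and 0.21. Sik1, a kinase that retains the CREB coactivators in the cytoplasm, ranged from 15.5 to 42.8 CPM. Its log2 change with antibiotics in saline mice was 0.49 ± 0.17, which did not pass (edgeR adjusted p = 0.142). Without water-morphine library 6, the lowest of its group for Sik1, the gene was called with morphine in water mice, at 0.60 ± 0.13 (edgeR adjusted p = 0.0129). That call is no independent result.

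The remaining members passed in 0 comparisons. The Krüppel-like factors Klf2, Klf4, Klf6 and Klf10, zinc finger regulators of which the Klf2 and Klf4 genes are also active in endothelium, ranged over 4.88 to 11.7, 4.02 to 8.92, 19.3 to 39.9 and 11.6 to 29.3 CPM, with changes between -0.20 and 0.27. Btg2, an antiproliferative cofactor, ranged from 7.46 to 38.7 CPM with changes between 0.03 and 0.52. Cyr61, a secreted matricellular protein, ranged from 2.56 to 11.8 CPM, and Atf3 from 0.969 to 3.24 CPM, with changes between -0.19 and 0.36.

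The immediate early genes varied more between libraries of the same group than the median gene, a description given without a test. The median within-group SD of log2 CPM was 0.337 over the members and 0.149 over all 14564 genes tested, and 31 of 32 members lay above the median of all genes. Against the 13243 genes whose mean was at least that of the lowest member, whose median was 0.138, the count was also 31. The most variable were Nr4a2 with an SD of 1.43, Npas4 with 0.903, Egr2 with 0.816, Fos with 0.793 and Arc with 0.714, and the SD of Jund was 0.0857. The highest library of a group was a median of 1.46 times the lowest in antibiotic-morphine mice, 1.87 times in antibiotic-saline mice, 2.29 times in water-morphine mice and 1.67 times in water-saline mice. It was smallest in antibiotic-morphine mice for 21 members and largest in water-morphine mice for 23. These ranges come from groups of 5 and 6 libraries, and their difference was not tested.

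**Figure D3:**
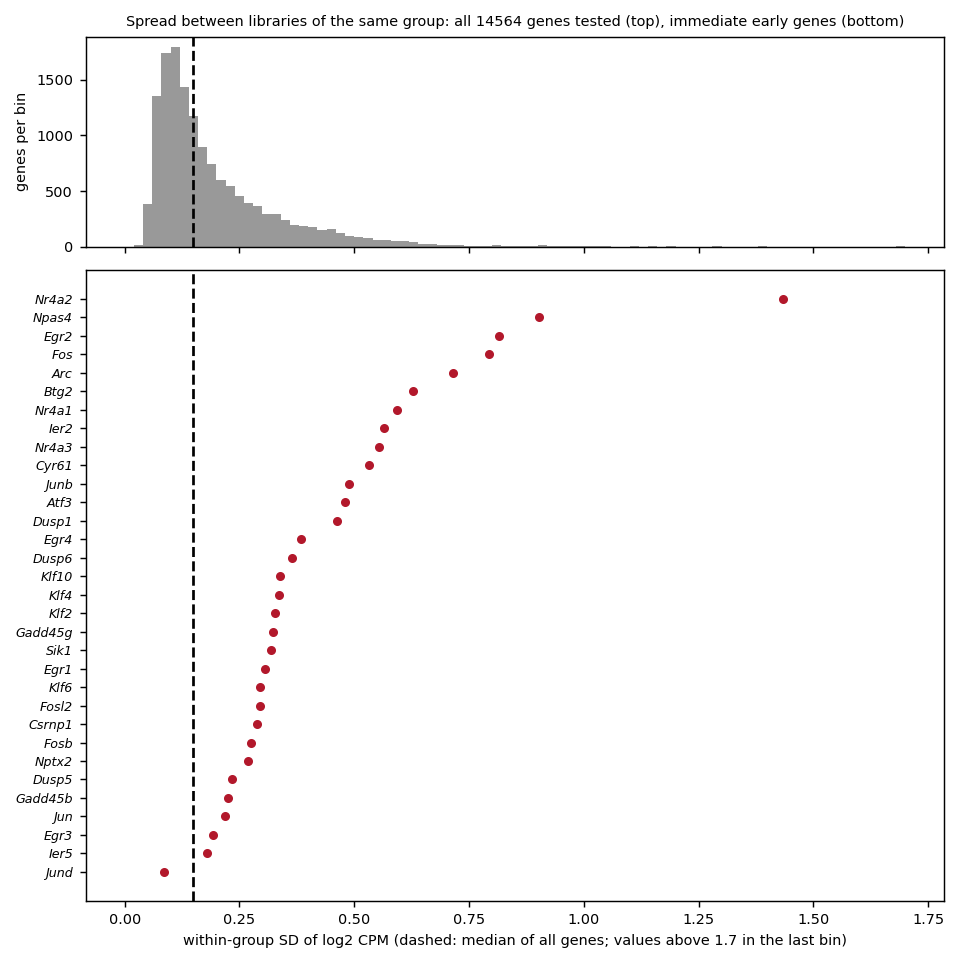
Within-group SD of log2 CPM (horizontal axis) over 22 libraries, as a histogram of all 14564 genes tested (top) and for each immediate early gene (bottom). The dashed line is the median of all genes, 0.149, and 31 of the 32 genes lie to its right, with Jund the exception.

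Single libraries carried much of that spread across many members at once. Water-morphine library 6 was the lowest of its group for 28 of 32 members, and its mean over the members was 0.92 log2 units below the mean of all libraries. Antibiotic-saline library 5 was the highest of its group for 28 members, with a mean 0.59 above. Water-saline library 5 was highest for 19, and water-morphine library 4 for 15. Leaving out water-morphine library 6 changed the morphine comparison in water mice to 3 members called higher (Fosl2, Nr4a1 and Sik1) and 0 lower, in a fit that called 556 genes (384 higher and 172 lower, 3.79% of those tested). It left 1 member, Csrnp1, called for antibiotics in morphine mice, in a fit that called 2051 genes (946 higher and 1105 lower, 14% of those tested). Library 6 was the lowest of its group for Fosl2, Nr4a1 and Sik1, so leaving it out raises their change with morphine. Their calls there are no independent result. The same fit called members where no library was left out: Dusp5 with morphine in antibiotic mice (12.6% of genes called), and Fosl2 and Sik1 with antibiotics in saline mice (1.31%). The spread of each gene is estimated over all groups together, so leaving out library 6 changes the standard errors in these comparisons too. These calls are no independent results either. The number of members called ran from 0 to 3 for morphine in water mice and from 1 to 5 for antibiotics in morphine mice as each library was left out.

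**Figure D4:**
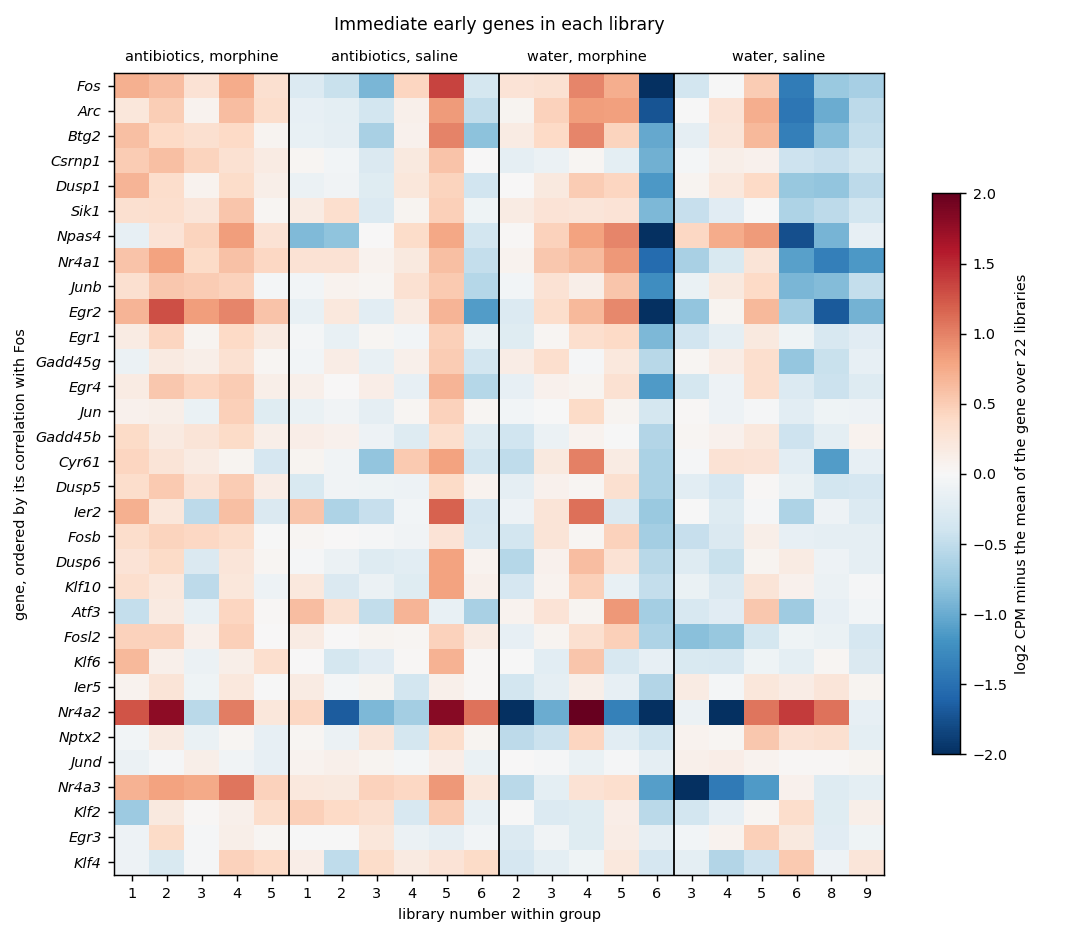
Log2 CPM of the 32 genes (vertical, ordered by correlation with Fos) in the 22 libraries (horizontal, numbered as in the titles), as the difference from each gene's mean, red above and blue below. Colours stop at 2 log2 units, which Nr4a2 passes. Water-morphine library 6 is blue across most genes and antibiotic-saline library 5 red.

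Most members moved together with Fos from library to library. To compare libraries within groups, the group mean was subtracted from each log2 CPM value, and Pearson's r and Spearman's rho with Fos were computed over the 22 libraries with permutation p-values (100000 permutations within groups, two-sided, adjusted over the 31 genes). Of the 31 other members, 21 were positively correlated with Fos past an adjusted permutation p of 0.05 by r and 18 by rho, with a median r of 0.731. Arc was closest, with r = 0.94 and rho = 0.93 (permutation p = 1e-05 for each, the smallest that the permutations can give; adjusted 7.75e-05 and 0.000103). Btg2 had r = 0.93 and rho = 0.93, Csrnp1 r = 0.92 and rho = 0.84, Dusp1 r = 0.91 and rho = 0.91, and Npas4 r = 0.87 and rho = 0.84. All values share the library's scaling and depth, so they are not free of a common technical part, which was not tested. The correlation with Fos was computed for the members only. How large a share of all genes follows Fos as closely is therefore not known.

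The relation rested partly on water-morphine library 6 and antibiotic-saline library 5, which lay farthest from the median of Fos. Without these, 13 members stayed past the threshold and the median r was 0.426. Arc then had r = 0.88, Btg2 0.90, Dusp1 0.86, Csrnp1 0.79, Npas4 0.74, Junb 0.71 and Nr4a1 0.70, whereas Egr1 had 0.43 and Fosb 0.22. Within the 6 antibiotic-saline libraries, with library 5 included, 29 of 31 members had a positive r with Fos (median 0.701). Within the 6 water-saline libraries 23 of 31 did (median 0.60). The share of all genes was not computed for either group. Over the 22 libraries Nr4a3 did not follow Fos (r = 0.21, rho = 0.04, adjusted permutation p = 0.458 and 0.915), nor did Egr3 (r = 0.04, rho = -0.05, adjusted permutation p = 0.857 and 0.915). Within the saline groups the sign differed. For Nr4a3 r was 0.77 in antibiotic-saline and -0.66 in water-saline libraries, and for Egr3 -0.85 and 0.48. With 6 libraries in each group, these were not tested.

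Some members followed the markers of cortical and septal neurons, a relation chosen for study after the data were seen. The mean centred log2 CPM of 19 marker genes of cortical and septal neurons was used as the measure, and 8 of 32 members were positively correlated with it past an adjusted permutation p of 0.05 (9 by rho). Nr4a2 had r = 0.96 and rho = 0.96 (permutation p = 1e-05 for each, adjusted 0.000213 and 0.00032), Dusp6 r = 0.83 and rho = 0.78, Klf10 r = 0.83 and rho = 0.81, Klf6 r = 0.77 and rho = 0.72, and Ier2 r = 0.75 and rho = 0.68. Jun, Fosl2 and Ier5 followed with r = 0.69, 0.69 and 0.66. These 8 are not a set apart from the members that followed Fos: Jun (r with Fos 0.75, adjusted permutation p = 0.000124), Ier2 (0.70, adjusted permutation p = 0.00144), Dusp6 (0.58, adjusted permutation p = 0.0310) and Klf10 (0.57, adjusted permutation p = 0.0192) passed with both by r, and Dusp6 did not pass with Fos by rho (0.42, adjusted permutation p = 0.107). Fos itself had r = 0.45 and rho = 0.24 (adjusted permutation p = 0.243 and 0.513), and Npas4 r = 0.14. Without water-morphine library 4 and water-saline library 4, which lay farthest from the median of the marker list, 7 stayed past the threshold, Nr4a2 had r = 0.89, and Ier5 had r = 0.45. The correlation with the marker list was also computed for the members only, so no share of all genes stands beside these counts.

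**Figure D5:**
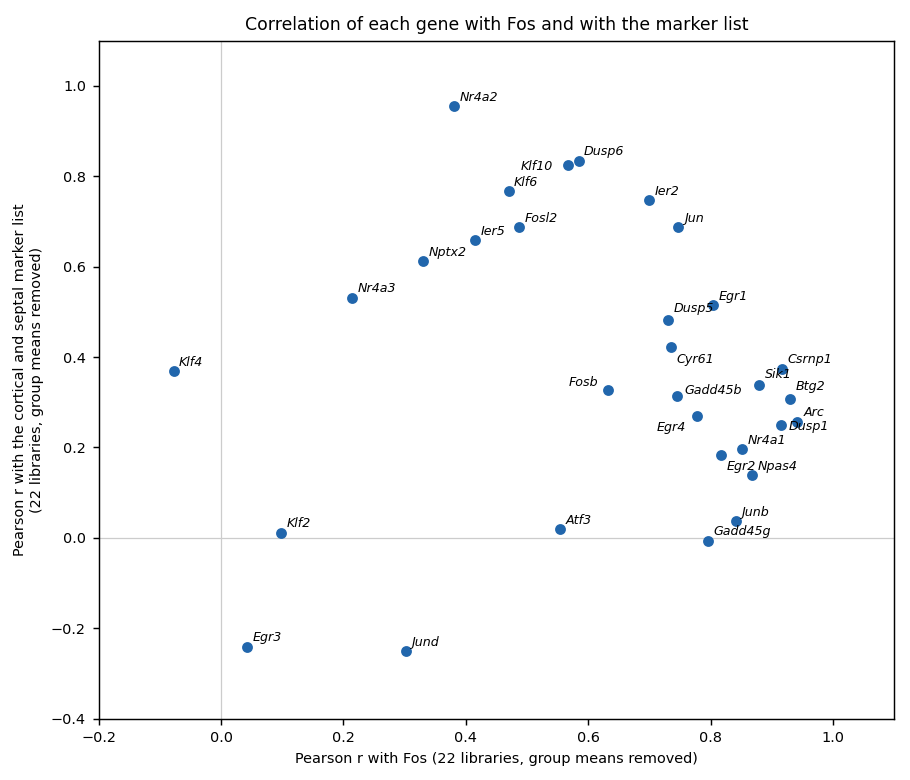
Pearson r of each immediate early gene with Fos (horizontal axis) and with the mean of 19 cortical and septal markers (vertical axis), over 22 libraries after removal of group means. Arc, Btg2, Csrnp1 and Dusp1 lie at the far right, and Nr4a2, Dusp6 and Klf10 at the top.

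The levels of these cortical and septal markers stand here beside the results above, and their part in them was tested only by the settings that follow. Neurod6, of this list, had a count of 0 in some libraries. Their summed level was 537 to 1342 CPM in antibiotic-morphine mice and 346 to 1580.0 CPM in water-morphine mice. It was 469 to 1940.2 CPM in antibiotic-saline mice and 362 to 1033 CPM in water-saline mice. In morphine mice, 16 of 19 markers had a positive change with antibiotics (median log2 change 0.17), 0 passing the test, and in saline mice also 16 of 19 (median 0.57), 0 passing. With morphine, 14 of 19 were positive in water mice (median 0.16), where Lamp5 fell by 0.46 ± 0.13 (edgeR adjusted p = 0.0414), and 6 of 19 in antibiotic mice (median -0.06). With the marker mean as a covariate, Csrnp1 and Gadd45b still passed for antibiotics in morphine mice, whereas Nr4a3 (0.66) and Ier5 (0.19) did not. Leaving out antibiotic-saline library 5 and water-morphine library 4, which had the highest marker means, raised the count there to 8 members higher, adding Dusp5, Klf6, Nptx2 and Nr4a2, in a fit that called 3070 genes (1428 higher and 1642 lower, 21% of those tested). This setting was chosen after seeing the data. For Nr4a2 and Nptx2 it leaves out the water-morphine library in which each was highest (Nptx2 at 43.8 CPM, next 28.1). The markers that chose the library correlate with Nr4a2 at r = 0.96, with Klf6 at 0.77 and with Nptx2 at 0.61 (adjusted permutation p = 0.0647 for Nptx2). The calls of Nr4a2, Klf6 and Nptx2 there are therefore no independent results.

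Other genes that neuronal activity induces, a list of 39 of which 38 were tested, gave 1 called higher and 0 lower for morphine in water mice, 4 and 0 for morphine in antibiotic mice, 0 and 0 for antibiotics in saline mice, and 9 and 1 for antibiotics in morphine mice. In the same order, 3.91% of all genes were called higher and 2.67% lower, 6.43% and 6.62%, 0.542% and 0.865%, and 8.42% and 9.58%. In the last comparison Per1, a clock gene with a CREB site, rose by 0.51 ± 0.10 (edgeR adjusted p = 0.00129), the kinase gene Plk3 by 0.57 ± 0.12 (edgeR adjusted p = 0.00224), and Maff, a small Maf factor, by 1.22 ± 0.28 (edgeR adjusted p = 0.00347). Sorcs3, a sorting receptor, fell by 0.30 ± 0.07 (edgeR adjusted p = 0.00349). In antibiotic mice Arl5b rose with morphine by 0.58 ± 0.15, Maff by 0.94 ± 0.26, Per1 by 0.34 ± 0.10 and Fbxo33 by 0.20 ± 0.06 (edgeR adjusted p from 0.0131 to 0.0388). In water mice Tiparp, an ADP-ribosylating enzyme, rose by 0.58 ± 0.16 (edgeR adjusted p = 0.0343). At an unadjusted p under 0.05 the saline comparison had 9 higher and 3 lower, where 17.3% of all genes had such a p. The list's smallest edgeR adjusted p there was 0.0554. The list's median log2 changes were 0.02, 0.13, 0.15 and 0.22 in these comparisons. With the length slope as a covariate, morphine called 0 of all genes tested in water mice and 141 in antibiotic mice.

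Of 43 genes that carry calcium, cyclic AMP and MAP kinase signals to immediate early genes, all of which were tested, 4 rose and 3 fell with morphine in water mice, and 2 rose and 3 fell in antibiotic mice. Of all genes tested, morphine called 3.91% higher and 2.67% lower in water mice, and 6.43% and 6.62% in antibiotic mice. With antibiotics 1 rose in saline mice, and in morphine mice 4 rose and 1 fell. Antibiotics called 0.542% of all genes higher and 0.865% lower in saline mice, and 8.42% and 9.58% in morphine mice. Rps6ka2, a ribosomal S6 kinase, rose with morphine in water mice by 0.26 ± 0.05 (edgeR adjusted p = 0.00532), and with antibiotics in saline mice by 0.20 ± 0.05 (edgeR adjusted p = 0.0429). The calcium channel gene Cacna1d rose with morphine by 0.26 ± 0.06 in water mice (edgeR adjusted p = 0.0106) and by 0.23 ± 0.06 in antibiotic mice (edgeR adjusted p = 0.0095). The kinase gene Map2k2, upstream of ERK, fell by 0.17 ± 0.04 in water mice (edgeR adjusted p = 0.0166) and by 0.24 ± 0.04 in antibiotic mice (edgeR adjusted p = 0.000663). Ep300, a histone acetyltransferase, rose in water mice by 0.25 ± 0.07 (edgeR adjusted p = 0.0301). In antibiotic mice Hdac5, a class IIa histone deacetylase, fell by 0.27 ± 0.06 (edgeR adjusted p = 0.00309), and Braf, a kinase of the ERK cascade, rose by 0.25 ± 0.05 (edgeR adjusted p = 0.00435). In morphine mice Mkl1, a coactivator of SRF, rose with antibiotics by 0.25 ± 0.07 (edgeR adjusted p = 0.0147), Braf by 0.19 ± 0.06, Camkk1 by 0.28 ± 0.08 and Cacna1d by 0.19 ± 0.06 (edgeR adjusted p from 0.0213 to 0.0306). The list's median log2 changes lay between -0.02 and 0.06. With the length slope as a covariate, morphine called 0 of 14564 genes in water mice. In antibiotic mice it then called 141 genes, against 1900 without the covariate. Length slope and morphine cannot be told apart in water mice, and hardly in antibiotic mice.

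Markers of other cells and of glucocorticoid response moved in the comparison that called the 4 members, antibiotics against water in morphine mice. Of all genes tested, 8.42% were called higher there and 9.58% lower. Of 20 microglia markers 14 fell and 0 rose, with summed levels of 598 to 709 CPM in antibiotic-morphine mice and 775 to 875 CPM in water-morphine mice, and none was at 0 in any library. Olfml3 fell by 1.45 ± 0.14, Fcrls by 1.18 ± 0.13, Itgam by 0.68 ± 0.08 and P2ry13 by 0.82 ± 0.11 (edgeR adjusted p at most 1.76e-05). Of 20 endothelial markers 2 rose and 6 fell, led by Slco1c1, which fell by 0.43 ± 0.07 (edgeR adjusted p = 8.18e-05). Of 20 striatal projection neuron markers 13 had a negative change (median -0.08) and 1 passed, Gnal, which fell by 0.28 ± 0.09 (edgeR adjusted p = 0.0375). Of 21 glucocorticoid-responsive genes 16 rose and 0 fell, with summed levels of 1737 to 2050.2 CPM in antibiotic-morphine mice and 1243 to 1376 CPM in water-morphine mice. Arrdc2 rose by 1.48 ± 0.15, Fkbp5 by 1.11 ± 0.11, Cdkn1a by 1.35 ± 0.14 and Sult1a1 by 1.54 ± 0.17 (edgeR adjusted p at most 2.66e-06). Per1 and Errfi1 stand both in this list and in the list of other activity-induced genes. The part of these changes in the members' levels was not tested.

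The change of the striatal projection neuron markers was negative for 19 of 20 with morphine in water mice (median -0.17), 11 of 20 with morphine in antibiotic mice (median -0.02) and 19 of 20 with antibiotics in saline mice (median -0.25), with 0 passing in each. Their part in the members' changes was not tested. With morphine in water mice, where Ier5 fell, 1 microglia marker rose and 4 fell, 5 endothelial markers fell, and 1 glucocorticoid-responsive gene, Mt1, fell by 0.22 ± 0.06 (edgeR adjusted p = 0.0368). Of all genes tested, 3.91% were called higher there and 2.67% lower, and 0 with the length slope as a covariate. With morphine in antibiotic mice 14 microglia markers fell, 1 endothelial marker rose and 6 fell, and 10 glucocorticoid-responsive genes rose, led by Fkbp5 at 0.72 ± 0.11 (edgeR adjusted p = 0.000308). Of all genes tested, 6.43% were called higher there and 6.62% lower, and 141 genes were called with the length slope as a covariate. With antibiotics in saline mice 9 microglia and 2 endothelial markers fell and 4 glucocorticoid-responsive genes rose, led by Plin4 at 2.52 ± 0.43 (edgeR adjusted p = 0.00792). Of all genes tested, 0.542% were called higher there and 0.865% lower. For the difference between the morphine changes, 3 glucocorticoid-responsive genes passed, Cdkn1a at 1.26 ± 0.20 (edgeR adjusted p = 0.00826), Arrdc2 at 1.05 ± 0.20 and Fkbp5 at 0.79 ± 0.15 (edgeR adjusted p = 0.0206 for each), where 0 of the immediate early genes and 0.467% of all genes did.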

How the data were processed

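RNA was sequenced from nucleus accumbens tissue in 22 libraries. Per the labels' protocols, RNA was extracted with TRIzol and cDNA was made from total RNA with a SMARTer kit, while the molecule is labelled polyA RNA. Per the submitters' processing notes, STAR 2.4.0, FastQC and edgeR were used; the sources used here name no genome build, annotation, counting tool or strand setting, so reads of overlapping genes cannot be told apart. The authors deposited raw counts for 24061 genes and 5 summary entries, which held 20.6% to 26.4% of each library's counts and were left out of library sizes and tests. The authors also deposited a normalized signal table of 10874 entries, which holds 27 of the 32 members and equals the counts divided by 1 constant per library within a relative deviation of 7.16e-09; it was used only for that check.

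The counts were tested with edgeR 4.0.16 (R 4.3.3; TMM scaling, filterByExpr by group, robust quasi-likelihood fit of 4 groups, 5 contrasts, Benjamini-Hochberg adjustment over 14564 genes), after the scripts were tested on simulated data. Correlations used log2 CPM with a prior count of 2 and 100000 permutations (Python 3.11.15, scipy 1.17.1). Alternatives were DESeq2 1.42.0, limma-voom (limma 3.58.1), other scalings and filters, covariates, a replicate block and leaving out libraries. The members and gene lists were chosen with earlier results of these data known. Full statistics were given for members past the threshold, the 3 smallest p in each contrast and the classical markers Fos, Fosb, Egr1, Arc, Npas4, Nr4a1 and Junb, and for other lists up to 4 genes a contrast. The labels give no batch. Counts of replicate pairs differed by more than sampling noise, and each library was counted once.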

Additional observations from a re-analysis of the deposited data

Results flagged for a closer look

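In 15 of the 128 gene and group combinations 1 library stood apart from the rest of its group by Dixon's test at 95% on CPM values. Chance alone gives about 1 in 20 where values are normally distributed, which was not tested. The rate over all genes was not computed. Of these, 12 were high and 3 low, and 9 fell on antibiotic-saline library 5, so they are not separate observations. That library had the highest value of its group for Fosl2 (64.6 CPM), Jun (63.9 CPM), Egr1 (350.1 CPM), Arc (241 CPM), Nr4a3 (24.5 CPM), Dusp6 (57.0 CPM), Btg2 (38.7 CPM), Klf6 (39.9 CPM) and Klf10 (29.3 CPM). It also had the highest mean of the cortical and septal markers of all libraries. Its mean of the striatal projection neuron markers was the lowest of all libraries (-0.73 in centred log2 CPM). The part of either in these values was not tested.

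Water-morphine library 4 stood apart for Nr4a2 (58.9 CPM, with 5.91 CPM the next in its group) and Nptx2 (43.8 CPM, next 28.1 CPM). It had the second highest mean of the cortical and septal markers and the second lowest of the striatal projection neuron markers (-0.39). Water-saline library 5 was high for Egr4 (59.9 CPM, next 44.1 CPM). Sik1 was low in water-morphine library 6 (15.5 CPM, next 32.5 CPM), Fosb in antibiotic-morphine library 5 (20.9 CPM, next 26.7 CPM) and Klf4 in antibiotic-saline library 2 (4.28 CPM, next 6.76 CPM).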

How the results depend on the processing

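The number of members called depended on the fit. For morphine in water mice it was 1, and 0 with no filter on low counts, with the compared groups alone, with the replicate block or with the length slope covariate, and 2 with DESeq2, with the cortical marker covariate or without the 2 highest cortical libraries. For morphine in antibiotic mice it was 0, and 1 with the compared groups alone and 2 without the cortical libraries. For antibiotics in saline mice it was 0, and 2 with DESeq2 and 1 with limma-voom. For antibiotics in morphine mice it was 4, and 2 with no filter, with the replicate block, with the cortical covariate or without the 2 highest Malat1 libraries, and 8 without the cortical libraries. For the difference it was 0, and 1 without the cortical libraries. Leaving out each library gave 0 to 3, 0 to 1, 0 to 2, 1 to 5 and 0 members in these comparisons.

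Genes called numbered 959 for morphine in water mice, and 281 with the replicate block, 1519 with the cortical covariate and 0 with the length slope. They numbered 1900.0 for morphine in antibiotic mice, and 1187 with the compared groups alone and 141 with the length slope. For antibiotics in saline mice they numbered 205, and 420.0 with DESeq2, 67 with the compared groups alone, 105 with the replicate block, 315 with the cortical covariate, 45 with the length slope, 74 without the Malat1 libraries and 129 without the cortical ones. For the difference they numbered 68, and 181 with DESeq2, 10 with the replicate block, 152 with the cortical covariate and 145 without the cortical libraries. Leaving out each library gave 509 to 1118, 1084 to 2048, 48 to 409, 1877 to 2824 and 28 to 100 genes. The causes were not tested.

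Small log2 changes turned. Gadd45b for antibiotics in saline mice was -0.010 with the replicate block, -0.022 with the cortical covariate, -0.044 without the cortical libraries and -0.050 to 0.073 leaving out each library. For antibiotics in morphine mice the cortical covariate gave Fos -0.095, Arc -0.11 and Npas4 -0.055, leaving out the Malat1 libraries gave Arc -0.035 and Npas4 -0.12, and leaving out each library gave Fos -0.063 to 0.42, Arc -0.21 to 0.20 and Npas4 -0.25 to 0.24. With the length slope, morphine in water mice gave Csrnp1 0.013 and Gadd45b 0.072; leaving out each library gave Csrnp1 -0.17 to 0.050. For antibiotics in saline mice Arc was -0.061 without the cortical libraries and -0.066 to 0.43 leaving out each library, and Npas4 was -0.39 to 0.032. The Nr4a3 difference was 0.081 without the cortical libraries and -0.37 to 0.019 leaving out each library. Without the 2 libraries farthest in Fos, 13 members stayed correlated, and r was -0.058 for Fosl2, -0.12 for Jund, -0.33 for Nr4a3, -0.021 for Ier5 and -0.40 for Klf2.

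Whether the title numbers pair the libraries is not known. Deviations of same-numbered libraries correlated above 0.1 in 1 of 4, 1 of 5, 2 of 4 and 2 of 4 pairs (r from -0.48 to 0.35). Differently numbered pairs were not compared, so these values cannot exclude pairing. The labels do not say what the numbers mark, and the replicate block is given only in this section. With it, antibiotics in morphine mice still called Csrnp1 and Gadd45b, but neither Nr4a3 nor Ier5. Leaving out the cortical libraries and the correlation with the cortical list were chosen after seeing the data.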
